A study of Mus musculus with 25 samples.

Results

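In 25 mouse livers, 10 genes of growth arrest and of the p53 response were followed: Cdkn1a, Wee1, Ccnd1, Ccng1, Mdm2, Trp53inp1, Gadd45a, Gadd45b, Gadd45g and Btg1. They were taken by gene symbol from a table of RPKM values (reads per kilobase of gene, scaled to the total reads of each library), and all 10 were found among the 17838 genes with values and among the 9372 genes tested. The livers came from C57BL/6 mice that had been joined surgically in pairs sharing blood (parabiosis) for 5 weeks, with 5 animals in each of 5 groups. Yg WT livers came from 5-month-old wild-type mice joined to old mice, and Yg Het livers from 5-month-old mice heterozygous for Manf (genotype ManfHet), a gene for a secreted stress-response protein, joined to old mice. The old livers were all wild type and 21 months old: O-O livers were paired with another old mouse, O (YgWT) livers with a young wild-type mouse and O (Yg Het) livers with a young Manf heterozygote. The labels do not give the sex, the time of day at collection, the kind of Manf allele, or the individual partner of any mouse. No unjoined mice are among the samples, so all 5 groups share the surgery.

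The p53 protein, encoded by Trp53 in mice, is a transcription factor that is stabilised by DNA damage and other stress. It switches on genes that stop the cell cycle, such as Cdkn1a, and also Mdm2, whose product marks p53 for destruction and so closes a feedback loop. Arrest genes also answer to other inputs: in mouse liver Wee1 is transcribed under the circadian clock, and Gadd45 and Btg1 genes respond to stress and to withdrawal of growth signals. Adult hepatocytes are mostly outside the cell cycle and can re-enter it after injury.

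Between 14.48 and 18.62 M reads (megareads) per library fell on genes with values. Differences were fitted with limma on log2(RPKM + 0.5) in a single model of all 25 libraries, p-values were adjusted by Benjamini-Hochberg over all 9372 tested genes, and a gene was called at an adjusted p under 0.05. Because 0.5 is added, the fitted differences understate changes of genes near or under 1 RPKM. Manf itself stood at 15.3 ± 6.47 RPKM in Yg WT and 4.47 ± 1.11 RPKM in Yg Het livers (SD, n = 5 each). The wild-type old livers also differed in Manf, at 17.6 ± 2.46 in O (YgWT), 8.86 ± 2.53 in O-O and 7.12 ± 1.81 RPKM in O (Yg Het). O (Yg Het) livers were lower than O (YgWT) livers by -1.27 ± 0.23 on the log2 scale (SE, limma adjusted p = 0.000671). Of 11 listed hepatocyte markers, 10 had values and were tested, with a summed level of 36600 to 79200 RPKM. O (Yg Het) replicate 4 and O-O replicate 4 stood apart in markers of non-hepatocyte cells: their summed levels of 10 macrophage markers were 70.0 and 828 RPKM, the lowest and the highest of the 25 livers. For the 10 genes, calls that changed without either library are given both ways. For Trp53, the cell markers and all other genes, calls without these libraries are not reported here. Whether fewer cells of a type or less RNA per cell lies behind a lower level cannot be told apart in bulk tissue.

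The stretch of 250 bases before the annotated start is shown for Cdkn1a and Ccng1, the pair of genes whose levels followed each other most closely among the 10. Of the 10 genes, 7 had an entry in the RefSeq promoter table (GRCm38.p6); Wee1, Ccnd1 and Trp53inp1 are named here without a sequence. Capitals mark copies of the p53 core motif, the decamer that a pair of p53 molecules contacts, searched so that both strands are covered.
Cdkn1a: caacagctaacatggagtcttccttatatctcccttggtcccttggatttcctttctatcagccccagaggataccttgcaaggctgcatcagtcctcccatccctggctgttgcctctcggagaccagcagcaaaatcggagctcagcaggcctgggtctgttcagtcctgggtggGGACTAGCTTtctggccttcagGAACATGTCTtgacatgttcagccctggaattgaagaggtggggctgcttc
Ccng1: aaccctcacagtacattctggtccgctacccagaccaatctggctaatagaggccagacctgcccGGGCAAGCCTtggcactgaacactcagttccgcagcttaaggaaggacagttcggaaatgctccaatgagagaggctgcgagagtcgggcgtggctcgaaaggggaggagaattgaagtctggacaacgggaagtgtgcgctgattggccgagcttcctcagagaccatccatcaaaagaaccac

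The Cdkn1a stretch lies at chr17:29090729-29090978 on the plus strand and the Ccng1 stretch at chr11:40755287-40755536 on the minus strand. Before the Cdkn1a start, copies of the motif lay 73 to 64 bases and 51 to 42 bases upstream, 12 bases apart. A pair of copies within 13 bases of each other occurred in 21 of 32851 promoters of the same length (0.0639%), and at least 1 copy in 7.13%. Ccng1 held 1 copy 185 to 176 bases upstream, Mdm2 1 copy (GAACTTGCCT) and Gadd45a 1 copy (GGGCTAGCCC). Btg1, Gadd45b, Gadd45g and a second annotated Cdkn1a start had 0 copies in this window. The clock-related motif CACGTG, present in 6.02% of promoters, occurred in Gadd45b and Gadd45g. These are matches of letters, and binding was not measured.

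Across the 7 comparisons of groups, Wee1 was called in 4, Cdkn1a, Ccng1, Trp53inp1 and Btg1 in 2 each, and Ccnd1 in 1. Mdm2, Gadd45a, Gadd45b and Gadd45g were called in 0 of 7. In O (YgWT) against O-O livers 1 of 10 genes was called, Wee1, where 1.17% of all tested genes were. For O (Yg Het) against O-O livers 2 of 10 were called, both lower, against 23.6% of all genes called and 22.7% called lower. In O (Yg Het) against O (YgWT) livers 4 of 10 were called, 1 higher and 3 lower, against 32.7% of all genes, of which 3.07% of those tested were higher and 29.6% lower. The counts in both comparisons with O (Yg Het) livers were thus close to the share over all genes.

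In Yg Het against Yg WT livers 3 of 10 were called, 1 higher and 2 lower, with a background of 5.13% (3.72% higher and 1.41% lower). O-O against Yg WT livers gave 2 of 10, both higher, with 10.9% of all genes called (9.11% higher and 1.74% lower). Old against young livers of heterozygous pairs, O (Yg Het) against Yg Het, gave 1 of 10, a higher one. The background was 5.55%, of which 4.64% of those tested were lower. In this comparison age, Manf genotype, and the age and genotype of the partner differ together and cannot be told apart. In wild-type pairs the age of the mouse and that of its partner likewise differ together. Within wild-type pairs, O (YgWT) against Yg WT, limma called 0 of 10 and 0.117% of all genes; voom, a count-based fit on reads recovered from the RPKM steps, also called 0. A test of whether the difference between old and young livers varied with pair type (interaction) called 0 of 10 and 0.0107% of all genes. Voom called 0 of 10 there.

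At an unadjusted p under 0.05 there were 3 of the 10 genes in O (YgWT) against O-O livers, where 16.0% of all genes passed, and 3 in O (Yg Het) against O-O (38.8%). There were 5 in O (Yg Het) against O (YgWT) (44.0%), 5 in Yg Het against Yg WT (21.7%) and 5 in O-O against Yg WT (28.7%). There were 2 in O (YgWT) against Yg WT (12.7%), 4 in O (Yg Het) against Yg Het (30.3%) and 3 in the interaction (31.3%).

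The median log2 difference of the 10 genes was -0.11 where all tested genes had -0.01, in O (YgWT) against O-O livers. It was -0.21 beside -0.14 in O (Yg Het) against O-O, and -0.18 beside -0.14 in O (Yg Het) against O (YgWT). In Yg Het against Yg WT it was -0.02 beside 0.05, and in O-O against Yg WT 0.25 beside 0.08. O (YgWT) against Yg WT gave 0.18 beside 0.08, and O (Yg Het) against Yg Het 0.05 beside -0.13. Scaling mattered for the libraries as a whole. With median-of-ratios factors the calls over all genes in O (Yg Het) against O-O went from 85 higher and 2126 lower to 650 and 531, and against O (YgWT) from 288 and 2777 to 1163 and 739, and the median over all genes moved from -0.14 to 0.05 and 0.04. With the factors taken over the tested genes alone, a setting chosen after seeing the data, these became 331 and 604, and 837 and 893, and the calls among the 10 genes were those of the first scaling. The first scaling, by median-of-ratios factors, turned 349 and 132 into 216 and 211 in Yg Het against Yg WT. It turned 854 and 163 into 317 and 526 in O-O against Yg WT, and 85 and 435 into 88 and 15 in O (Yg Het) against Yg Het.

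**Figure D1:**
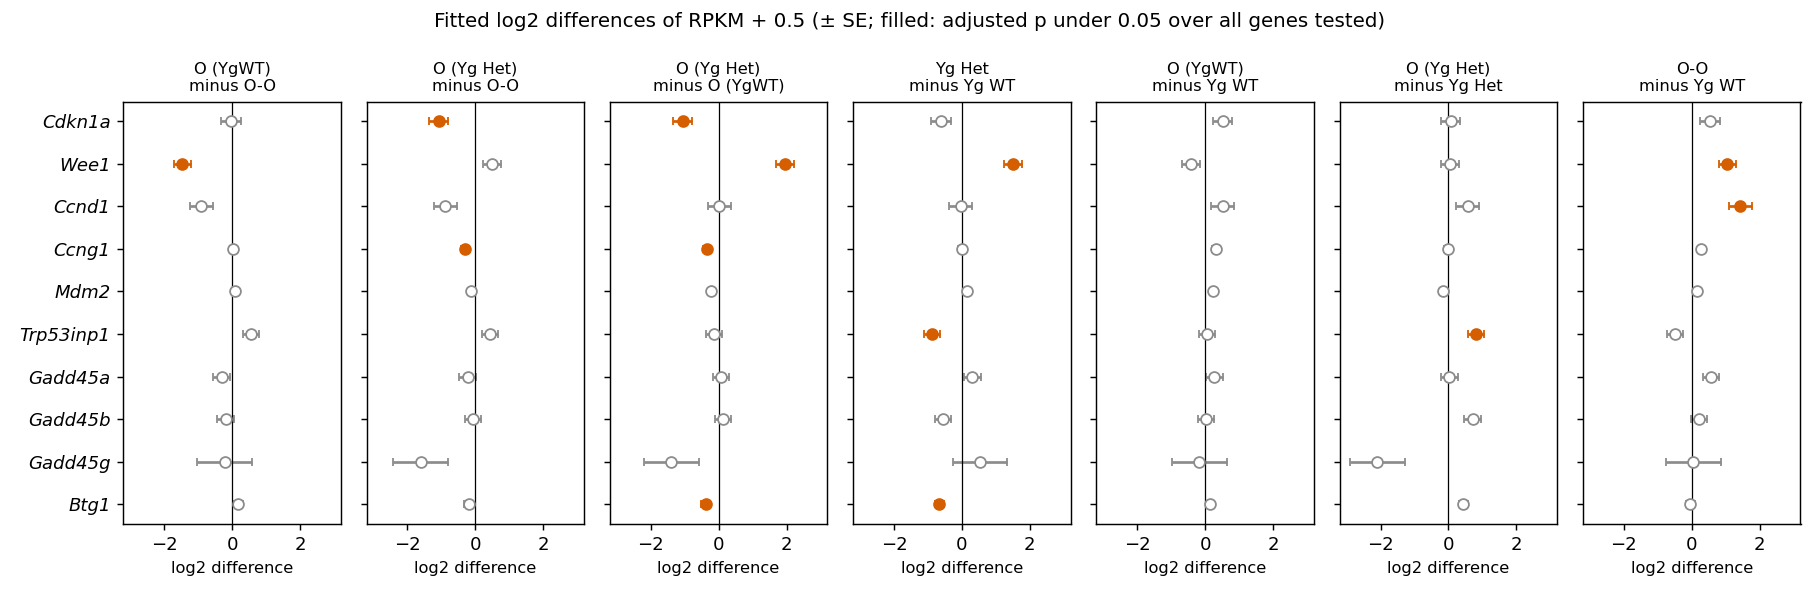
Fitted log2 difference of RPKM + 0.5 (x axis) with its standard error for each of the 10 genes (rows) in the 7 comparisons of groups (panels). Filled points were called at an adjusted p under 0.05 over all genes tested; Wee1 is filled in 4 panels and carries the largest positive difference, 1.96 in O (Yg Het) minus O (YgWT).

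Wee1 encodes the kinase that holds CDK1 inactive and so delays entry into mitosis. Its level differed between pair types, and old and young livers of the same pair type overlapped. In O (Yg Het) livers it read 4.95, 4.45, 5.50, 4.85 and 2.31 RPKM, and in Yg Het livers 2.48, 4.81, 6.63, 4.89 and 3.01 RPKM. The O-O livers held 2.15, 2.35, 2.79, 3.48 and 3.88 RPKM. Yg WT livers were lower, at 1.85, 0.799, 0.585, 0.914 and 1.93 RPKM, as were O (YgWT) livers at 0.602, 0.705, 0.407, 0.858 and 1.19 RPKM. Every liver of the O-O group and of both kinds of heterozygous pair lay above every liver of the wild-type pairs. The order of the means was O (Yg Het) at 4.41 ± 1.23, Yg Het at 4.37 ± 1.66, O-O at 2.93 ± 0.738, Yg WT at 1.22 ± 0.629 and O (YgWT) at 0.753 ± 0.295 RPKM (SD, n = 5 each). Within this order the neighbours O (Yg Het) and Yg Het, Yg Het and O-O, and Yg WT and O (YgWT) overlapped.

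Old livers with a young wild-type partner had less Wee1 than O-O livers, by -1.46 ± 0.26 on the log2 scale (SE, limma adjusted p = 0.0074). Old livers with a heterozygous partner had more than those with a wild-type partner, by 1.96 ± 0.26 (adjusted p = 4.4e-05). Between the young groups the difference was 1.51 ± 0.26 in favour of Yg Het (adjusted p = 0.00345), and O-O livers exceeded Yg WT livers by 1.05 ± 0.26 (adjusted p = 0.0134). All 4 calls were kept with each single library left out and in all alternative settings that kept Wee1 in the test. The groups did not overlap in any of these 4, whereas 4.16%, 15.2%, 4.66% and 7.45% of all tested genes were separated in that way. O (Yg Het) against O-O livers did not pass (0.50 ± 0.26, adjusted p = 0.149), except without O (Yg Het) replicate 5 (0.69, adjusted p = 0.0411). Old and young members of a pair type did not differ beyond the spread: -0.41 ± 0.26 in wild-type pairs (adjusted p = 0.509) and 0.04 ± 0.26 in heterozygous pairs (adjusted p = 0.935), with an interaction of 0.45 ± 0.36 (adjusted p = 0.366).

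The genes with the pattern most like Wee1 over the 25 livers were Usp2 (Pearson's r = 0.97), Tef (0.96) and Lrp4 (0.95). After each group's mean was removed, these were 0.84, 0.87 and 0.85. Usp2 encodes a deubiquitinating enzyme with a daily rhythm and Tef a clock output factor. Arntl, which encodes the clock activator BMAL1, ran opposite to Wee1 (r = -0.96, Spearman's rho = -0.96, and -0.79 within groups). Dbp, another clock output factor, ran with it (r = 0.90, rho = 0.95, and 0.64 within groups). Without the 2 livers farthest from the median of Arntl or Dbp, r was -0.96 and 0.90. These are descriptions over livers that share tissue, blood and processing.

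Of 16 tested circadian clock genes, 2 rose and 6 fell in O (YgWT) against O-O livers, and 11 rose and 3 fell in O (Yg Het) against O (YgWT). In Yg Het against Yg WT 9 rose and 3 fell, and in O-O against Yg WT 8 rose and 3 fell. After median-of-ratios scaling the last became 4 and 3. Limma called 0 of 16 in the other 3 comparisons, with 0, 1 and 0 at an unadjusted p under 0.05, and voom called 0. Dbp lay between 3.09 and 23.1 RPKM in the wild-type pairs and between 27.3 and 50.7 RPKM in all other livers, without overlap. Collection time is not in the labels, so a difference in it and the pair type cannot be told apart.

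**Figure D2:**
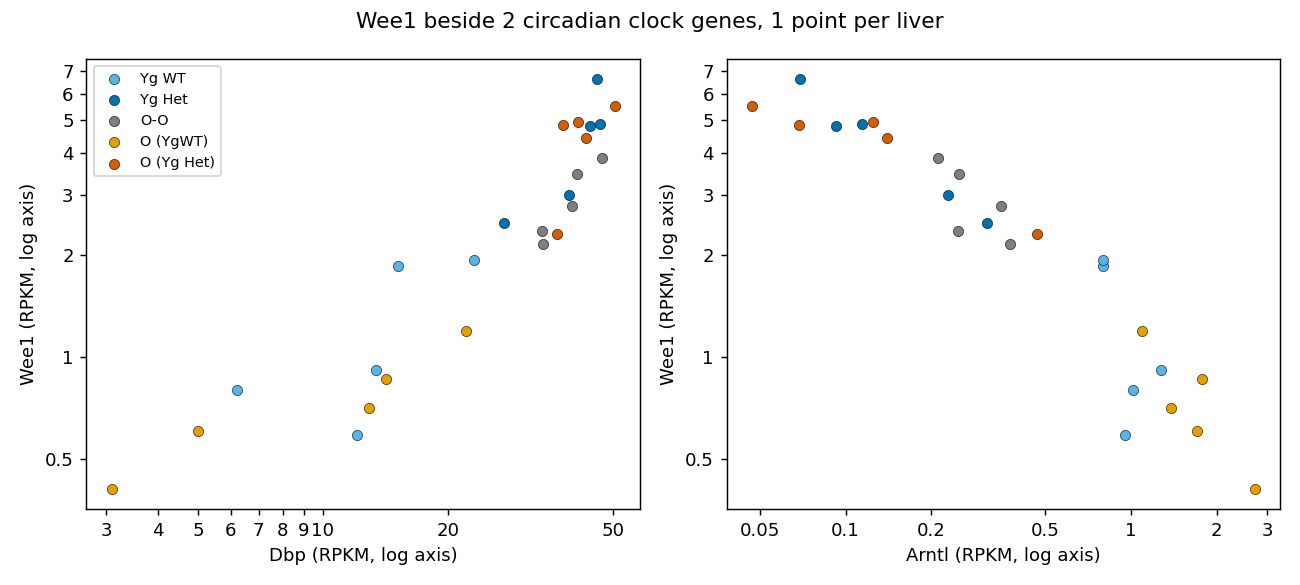
Wee1 (y axis, RPKM, log scale) against Dbp (left) and Arntl (right; x axes, RPKM, log scale), 1 point per liver, coloured by group. Livers of wild-type pairs (Yg WT and O (YgWT)) lie at low Wee1, low Dbp and high Arntl, and the r over 25 livers is 0.90 with Dbp and -0.96 with Arntl.

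Cdkn1a encodes p21, the inhibitor of cyclin-dependent kinases through which p53 halts the cell in G1. Its level was low throughout: 7 of 25 livers reached 1 RPKM. In the O (Yg Het) livers it read 0.247, 0.245, 0.335, 0.283 and 0.310 RPKM, from 14 to 19 reads each. The O-O livers read 1.2, 1.05, 0.483, 2.78 and 0.985 RPKM, and the O (YgWT) livers 0.760, 1.81, 2.18, 1.15 and 0.388 RPKM. All 5 O (Yg Het) livers were below all 10 other old livers. The young livers overlapped each other, at 0.156, 1.44, 0.662, 0.685 and 0.631 RPKM in Yg WT and 0.191, 0.498, 0.0898, 0.193 and 0.358 RPKM in Yg Het.

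Cdkn1a was lower in O (Yg Het) than in O-O livers by -1.08 ± 0.29 on the log2(RPKM + 0.5) scale (limma adjusted p = 0.0113) and lower than in O (YgWT) livers by -1.06 ± 0.29 (adjusted p = 0.00999). By the group means, 1.30 ± 0.871 and 1.26 ± 0.738 against 0.284 ± 0.0393 RPKM, the ratios were 4.58 and 4.43. Both calls were kept with each single library left out, O-O replicate 4 and O (Yg Het) replicate 4 included, and after both kinds of scaling. Voom on recovered reads gave -1.74 ± 0.60 against O-O (adjusted p = 0.058, not called) and -1.69 ± 0.60 against O (YgWT) (adjusted p = 0.0474). The groups did not overlap in either comparison, where 12.7% and 15.2% of all tested genes were so separated. The spread among the O (Yg Het) livers, 13.8% of the mean, was smaller than the 25% that counting 16.0 reads gives by itself, so their closeness carries little weight.

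Old livers with a young wild-type partner differed little from O-O livers in mean Cdkn1a (-0.03 ± 0.29, adjusted p = 0.973), although single livers of either group spanned a wide range. The young groups differed by -0.61 ± 0.29 in Yg Het against Yg WT, with an unadjusted p = 0.0488 and an adjusted p = 0.227. O-O livers stood 0.53 ± 0.29 above Yg WT livers (limma adjusted p = 0.232), and O (Yg Het) livers 0.06 ± 0.29 above Yg Het livers (adjusted p = 0.907). None of these was called, also with any single library left out.

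Ccng1, which encodes cyclin G1, a p53 target that recruits a phosphatase to MDM2, varied little: its highest value was 1.91 times its lowest. O (Yg Het) livers held 4.99, 6.29, 6.23, 5.02 and 5.79 RPKM and O (YgWT) livers 6.71, 8.85, 7.75, 6.93 and 6.50 RPKM. The O-O livers held 7.47, 8.39, 5.42, 7.95 and 6.52 RPKM. Young livers were at 5.77 ± 0.745 (Yg WT) and 5.75 ± 0.510 RPKM (Yg Het), close to the O (Yg Het) mean of 5.66 ± 0.632 RPKM. O (Yg Het) and O (YgWT) livers did not overlap, as in 15.2% of all tested genes. O (Yg Het) and O-O livers overlapped through O-O replicate 3.

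Ccng1 was lower in O (Yg Het) than in O (YgWT) livers by -0.35 ± 0.11 (limma adjusted p = 0.0183) and than in O-O livers by -0.30 ± 0.11 (adjusted p = 0.0443). Neither call held after median-of-ratios scaling, which gave -0.15 ± 0.10 (adjusted p = 0.307) and -0.10 ± 0.10 (adjusted p = 0.554). Against O (YgWT) the call was lost without O (YgWT) replicate 2 (adjusted p = 0.0624) or O (Yg Het) replicate 4 (0.0572). Against O-O it was lost without O-O replicate 1, 2 or 4 or O (Yg Het) replicate 1 or 4 (adjusted p = 0.0837 to 0.119). In O (YgWT) against Yg WT livers the groups did not overlap, as in 2.78% of all genes, and the difference of 0.32 ± 0.11 did not pass (adjusted p = 0.223). O-O exceeded Yg WT livers by 0.28 ± 0.11 (adjusted p = 0.089), which passed without O-O replicate 3 (adjusted p = 0.0281).

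Among the 45 pairs of the 10 genes, Cdkn1a and Ccng1 had the highest correlation over the 25 livers (r = 0.79, rho = 0.78, and 0.67 within groups). Without the 2 livers farthest from the median of Cdkn1a, r was 0.75. The median pair had r = 0.12, 8 pairs exceeded 0.5, and Cdkn1a with Ccng1 was the single pair above 0.5 both over all livers and within groups. Wee1 and Btg1 had the lowest value, -0.59, which was -0.05 within groups. The genes most like Cdkn1a were Pkm (r = 0.87), Ifit1 (0.86) and Klra2 (0.86). Those most like Ccng1 were Ankmy2 (0.85), Ppt1 (0.84) and Sdcbp (0.83).

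Trp53 itself was measured at 4.00 ± 0.355 RPKM in Yg WT, 3.88 ± 0.379 in Yg Het, 4.72 ± 0.733 in O-O, 4.37 ± 0.389 in O (YgWT) and 3.35 ± 0.361 in O (Yg Het) livers. All 5 O (Yg Het) livers, at 2.87 to 3.69 RPKM, were below all other old livers, at 3.86 to 5.91 RPKM. The groups were so separated in 12.7% of all tested genes against O-O and in 15.2% against O (YgWT). The difference in Trp53 was -0.43 ± 0.09 against O-O (limma adjusted p = 0.00287, with -0.24 and 0.0442 after scaling). Against O (YgWT) it was -0.34 ± 0.09 (adjusted p = 0.00661; -0.16 and 0.147 after scaling). Over the 25 livers Cdkn1a and Trp53 had r = 0.77 (rho = 0.82, 0.63 within groups, 0.75 without the 2 farthest livers). A transcript level says nothing of the stability of the p53 protein, which was not measured.

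Markers of several other cell types were also lower in O (Yg Het) livers. Of 10 macrophage markers, 9 were called lower in O (Yg Het) livers in both comparisons with old livers, also after scaling. Their summed level was 70.0 to 214 RPKM in O (Yg Het), 256 to 828 RPKM in O-O, 227 to 426 RPKM in O (YgWT), 167 to 360 RPKM in Yg WT and 205 to 289 RPKM in Yg Het livers. No marker of these lists was at 0 in every liver. Cdkn1a and this sum had r = 0.71 (rho = 0.76, 0.58 within groups), and 0.57 without the 2 farthest livers. Of the endothelial markers 8 of 10 were lower against O-O and 9 of 10 against O (YgWT), or 3 and 6 after scaling, and of the tested stellate cell markers 7 of 9 and 8 of 9, or 4 and 5 after scaling. The endothelial sums were 28.6 to 67.8 RPKM in O (Yg Het), 78.6 to 85.7 in O-O, 75.3 to 91.9 in O (YgWT), 70.4 to 92.6 in Yg WT and 48.9 to 85.8 RPKM in Yg Het livers. The stellate sums were 35.5 to 84.2, 98.1 to 125, 91.6 to 139, 54.3 to 86.3 and 66.0 to 96.9 RPKM in the same order. Most of the stellate sum came from Dcn, with a mean of 95.2 RPKM in O-O and 52.4 RPKM in O (Yg Het) livers. Over the 25 livers Cdkn1a had r = 0.47 with the endothelial sum and 0.61 with the stellate sum, which were 0.11 and 0.26 within groups.

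Neutrophil and lymphocyte markers were low and few could be tested. Of 8 neutrophil markers 3 were tested, and all 3 were lower in O (Yg Het) livers in both comparisons with old livers, or 0 against O-O and 2 against O (YgWT) after scaling. Their summed level was 1.94 to 4.67 RPKM in O (Yg Het), 5.24 to 14.6 in O-O, 5.95 to 22.9 in O (YgWT), 3.88 to 11.4 in Yg WT and 2.68 to 5.25 RPKM in Yg Het livers. Of 9 lymphocyte markers with values 3 were tested, of which 3 were lower against O-O (2 after scaling) and 0 against O (YgWT), where 1 had an unadjusted p under 0.05 and voom called 0. Their sums were 1.36 to 4.34, 4.98 to 33.3, 3.77 to 10.8, 2.45 to 6.88 and 2.45 to 3.87 RPKM in the same order. Cdkn1a had r = 0.80 with the neutrophil sum (0.57 within groups) and 0.73 with the lymphocyte sum (0.56 within groups). Of 7 erythroid markers 5 were tested, of which 1 was lower in O (Yg Het) against O-O and 3 against O (YgWT). After scaling 0 were called in either. All 5 had an unadjusted p under 0.05 by limma in both. Their median sum was 38.8 RPKM in O (Yg Het), 126 in O-O, 84.0 in O (YgWT), 90.8 in Yg WT and 83.1 RPKM in Yg Het livers.

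Hepatocyte markers were higher in O (Yg Het) than in O (YgWT) livers for 4 of 10 (7 after scaling). Against O-O 0 of 10 were called by limma, with 4 at an unadjusted p under 0.05, and 4 were higher after scaling and by voom. The median summed level was 77500 RPKM in O (Yg Het), 42400 in O (YgWT), 54100 in O-O, 52800 in Yg WT and 40400 RPKM in Yg Het livers. Alb, which encodes albumin, was at 42800 ± 11000 RPKM in O (Yg Het) and 20700 ± 8540 RPKM in O (YgWT) livers, a difference of 1.09 ± 0.27 (limma adjusted p = 0.00491). Cdkn1a had r = -0.22 with the hepatocyte sum (-0.12 within groups). The part of all these cells in the Cdkn1a, Ccng1, Btg1 and Trp53 differences was not tested.

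**Figure D3:**
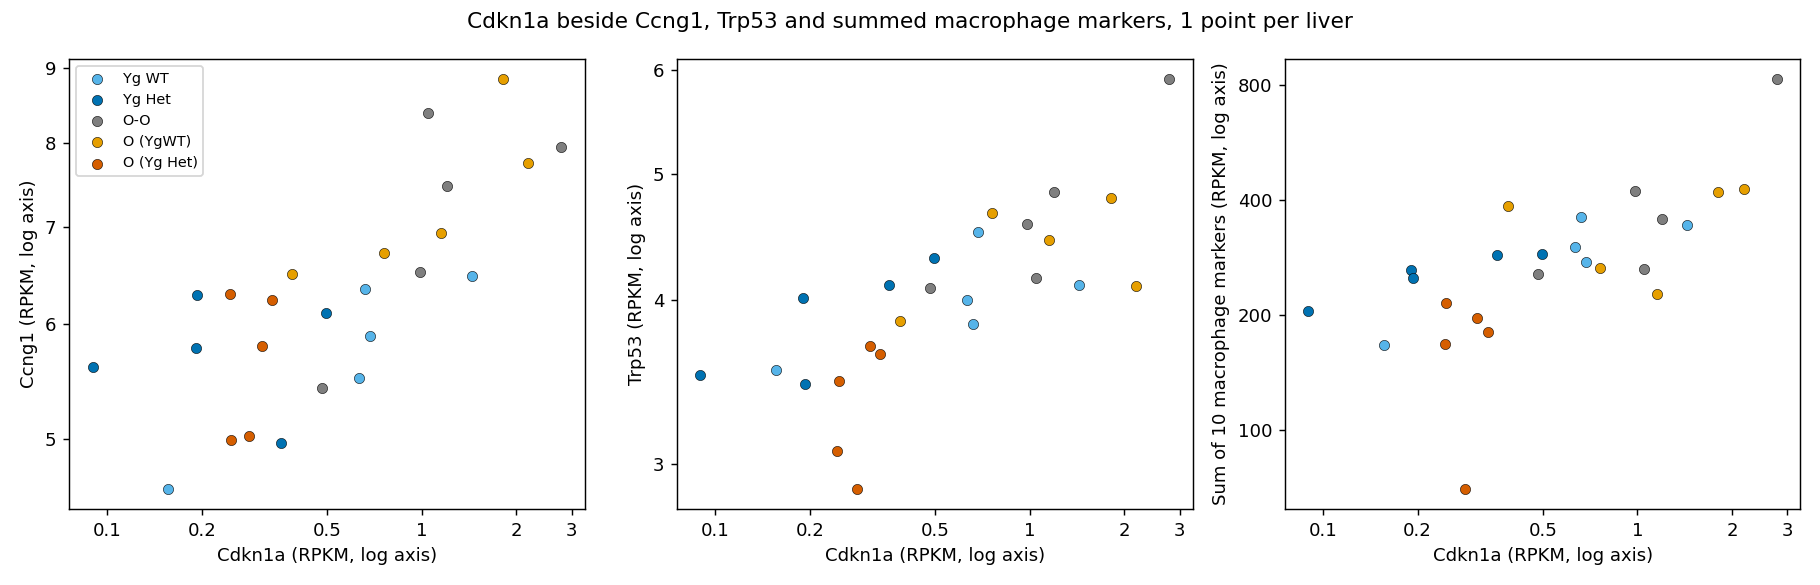
Cdkn1a (x axes, RPKM, log scale) against Ccng1, Trp53 and the sum of 10 macrophage markers (y axes, RPKM, log scales), 1 point per liver, coloured by group. The O (Yg Het) livers lie below all other old livers in Cdkn1a and Trp53, while young livers hold the lowest Cdkn1a (0.0898 RPKM) and Ccng1 (4.62 RPKM), and the r over 25 livers is 0.79, 0.77 and 0.71.

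Mdm2, the E3 ubiquitin ligase that p53 both induces and is degraded by, was the steadiest of the 10, with its highest value 1.76 times its lowest. The group means were 3.65 ± 0.362 RPKM in Yg WT, 4.15 ± 0.629 in Yg Het, 4.05 ± 0.198 in O-O, 4.38 ± 0.744 in O (YgWT) and 3.63 ± 0.287 in O (Yg Het) livers. No comparison was called. The nearest was O (Yg Het) against O (YgWT), at -0.23 ± 0.09 (limma adjusted p = 0.0615), which passed without O (YgWT) replicate 2 (0.0478) or 5 (0.044) and was -0.04 after scaling. The interaction was -0.39 ± 0.13 (adjusted p = 0.0856), and passed without Yg Het replicate 5 (0.0406) or with weights per library (0.0427). Its nearest patterns were those of Txnrd1 (r = 0.76), Dusp3 (0.76) and Oaz2 (0.75).

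Trp53inp1 encodes a stress-induced nuclear protein that aids p53 and takes part in autophagy. Yg Het livers held 4.55, 2.99, 5.78, 3.87 and 3.98 RPKM, all below the Yg WT livers at 11.3, 9.80, 6.02, 7.91 and 6.45 RPKM. Such a separation of these groups was found in 4.66% of all tested genes. O (Yg Het) livers held 5.44, 6.44, 6.65, 18.8 and 5.97 RPKM, with replicate 4 far above the others. The O-O livers ranged from 4.90 to 7.30 RPKM and the O (YgWT) livers from 6.69 to 9.76 RPKM.

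The difference between Yg Het and Yg WT livers was -0.89 ± 0.24 (limma adjusted p = 0.0327). That call was lost without Yg WT replicate 1, 2 or 4 or Yg Het replicate 2 or 4 (adjusted p = 0.0512 to 0.101), and held after scaling (-0.93, adjusted p = 0.037). O (Yg Het) livers exceeded Yg Het livers by 0.82 ± 0.24 (adjusted p = 0.0462), and without O (Yg Het) replicate 4 by 0.51 (adjusted p = 0.107). The call was also lost without Yg Het replicate 1, 2 or 4 or O (Yg Het) replicate 2 or 3 (adjusted p = 0.0623 to 0.141) and after scaling (0.96, adjusted p = 0.0685). Old livers with a wild-type partner were at 0.56 ± 0.24 against O-O (adjusted p = 0.235). Among the closest patterns, r was modest, at 0.64 each for Malat1 and Zfand4.

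Beyond the 10 genes, 24 further p53 targets were looked at, of which 15 passed the filter on low values (at least 1 RPKM in at least 5 of 25 livers). Compared with O-O, O (Yg Het) livers had 5 of 15 lower and 0 higher, with a median of -0.19 beside -0.14 for all genes and 22.7% of all genes called lower. The largest changes were in Plk2 (-0.62 ± 0.18), a polo-like kinase, Fas (-0.58 ± 0.14), the death receptor, Bax (-0.32 ± 0.11), a pore-forming apoptosis protein, and Polk (-0.25 ± 0.08), a translesion DNA polymerase. After scaling 0 of 15 were called in that comparison by limma, and 0 by voom.

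Against O (YgWT) livers 4 of 15 were lower in O (Yg Het) and 0 higher, with 29.6% of all genes called lower. Bbc3, which encodes the apoptosis trigger PUMA, fell by 0.92 on the log2 scale (SE 0.16, limma adjusted p = 0.000496) and Fas by 0.60 (SE 0.14, adjusted p = 0.00376). Plk2 stood at -0.56 ± 0.18 and Ei24 at -0.28 ± 0.08. After scaling 2 were lower and 1 higher; Bbc3 was at -0.75 (adjusted p = 0.00202), Fas at -0.41 (adjusted p = 0.0347) and Plk2 no longer passed (adjusted p = 0.128). In O-O against Yg WT livers 1 of 15 was higher, Xpc, a DNA repair gene (0.27 ± 0.08), and 0 after scaling. Limma called 0 of 15 in the other 4 comparisons, with 2 to 4 at an unadjusted p under 0.05, and voom called 0.

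Ccnd1 encodes cyclin D1, which drives the G1 phase with CDK4 and CDK6 and promotes division, unlike the arrest genes among the 10. The O-O livers read 13.5, 4.49, 3.62, 7.56 and 15.8 RPKM. Yg WT livers read 1.78, 4.92, 3.01, 2.44 and 1.61 RPKM and Yg Het livers 2.97, 1.89, 1.98, 2.54 and 3.29 RPKM. O (YgWT) livers, at 2.57 to 6.59 RPKM, and O (Yg Het) livers, at 2.27 to 6.95 RPKM, had means between these. O-O replicates 1, 4 and 5 were above all livers of the other groups, while replicates 2 and 3 overlapped them.

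O-O exceeded Yg WT livers by 1.43 ± 0.34 (limma adjusted p = 0.0115), a call kept with each single library left out and lost when the 2 groups were fitted alone (adjusted p = 0.0582). Against O-O livers, both old groups with a young partner had lower means without passing: -0.91 ± 0.34 in O (YgWT) (adjusted p = 0.175) and -0.89 ± 0.34 in O (Yg Het) (adjusted p = 0.0563). The latter passed without O-O replicate 2 (0.0281) or 3 (0.0197) or O (Yg Het) replicate 3 (0.0341). O (Yg Het) and O (YgWT) livers differed by 0.02 ± 0.34 (adjusted p = 0.976), and the young groups by -0.04 ± 0.34 (adjusted p = 0.964). Among the genes most like Ccnd1 were H2-T23 (r = 0.80) and Ifi27 (0.77).

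Of 6 tested genes among other G1 cyclins and kinases, Cdk4 rose in Yg Het against Yg WT (0.34 ± 0.10) and in O-O against Yg WT livers (0.35 ± 0.10), the latter not after scaling (0.24, limma adjusted p = 0.0688). It fell in O (Yg Het) against O-O livers (-0.28 ± 0.10), as did the retinoblastoma gene Rb1 (-0.24 ± 0.07), and neither was called after scaling. Rb1 was also lower in O (Yg Het) against O (YgWT) livers (-0.28 ± 0.07, limma adjusted p = 0.00687). Rbl2 rose in Yg Het against Yg WT (0.32 ± 0.09, adjusted p = 0.0408) and fell in O (Yg Het) against Yg Het livers (-0.32 ± 0.09, adjusted p = 0.0445). None of these further calls held after scaling. Of 3 tested CDK inhibitors other than Cdkn1a, Cdkn1b fell in O (Yg Het) against O-O livers (-0.25 ± 0.09, 0 called after scaling). Cdkn2c fell in O (Yg Het) against Yg Het livers (-0.58 ± 0.15, limma adjusted p = 0.0318), and not after scaling (adjusted p = 0.0795). Cdkn2a, a marker of senescence, stayed under 1 RPKM in every liver. Proliferation markers were mostly too low to test: 9 of 18 stayed under 1 RPKM in every liver. Of the 7 tested, Mcm4 (-0.48 ± 0.15) and Mcm6 (-0.54 ± 0.19), subunits of the replicative helicase, fell in O (Yg Het) against O-O livers, and 0 after scaling. The 7 genes of the mitotic entry list were all untested, with Cdk1 at 0.108 to 1.04 RPKM. Cdkn2a and Cdk1 were picked for naming after their values were seen.

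**Figure D4:**
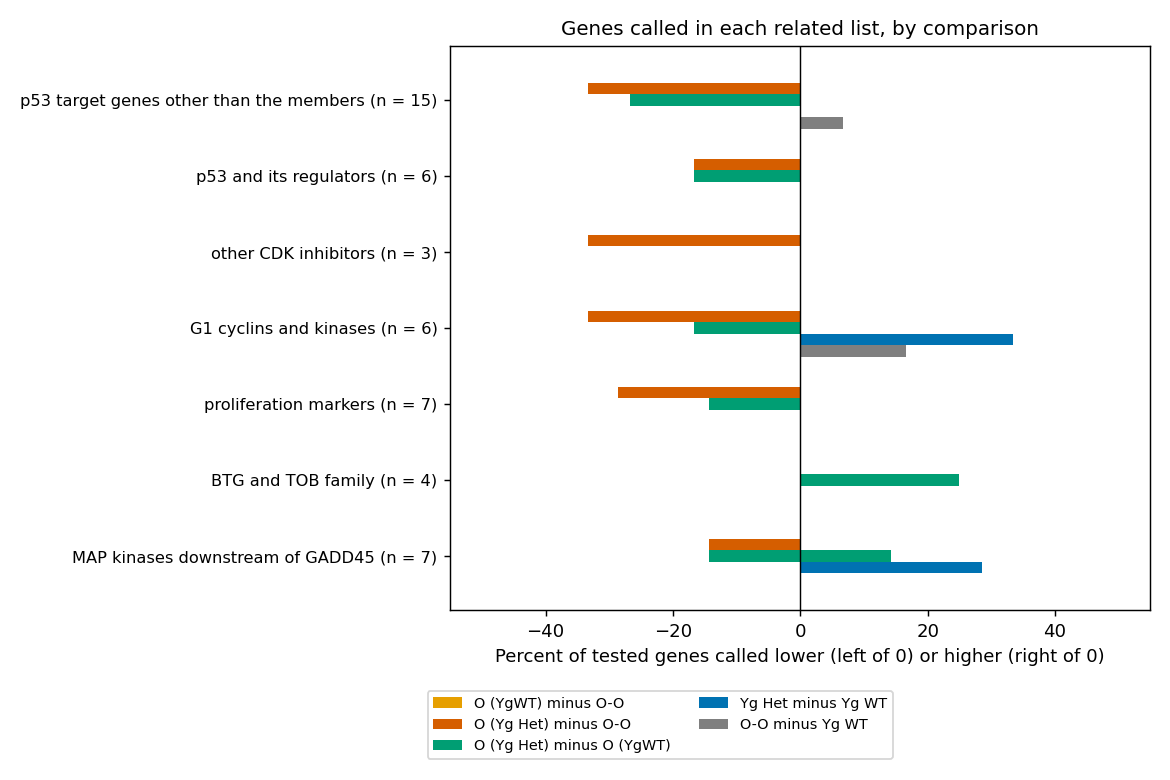
Percent of tested genes called lower (left of 0) or higher (right of 0; x axis) in 5 comparisons, for 7 lists related to p53, the cell cycle, BTG and MAP kinases (the clock and other lists are not drawn); n is the number of genes tested per list. Bars for both comparisons with O (Yg Het) livers point mostly left, where 22.7% and 29.6% of all genes were called lower, and O (YgWT) minus O-O has no bar in these 7 lists.

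The 3 Gadd45 genes encode small stress sensors that bind CDK1, PCNA and the kinase MAP3K4. Gadd45g varied most of the 10 genes, with its highest value 64.9 times its lowest. Yg Het livers read 28.2, 7.66, 1.16, 19.1 and 8.17 RPKM and O (Yg Het) livers 1.34, 0.494, 0.435, 12.8 and 1.56 RPKM. Of the O (Yg Het) livers, 2 were below the lowest Yg Het liver, 2 just above it, and replicate 4 well inside their range. The difference was -2.09 ± 0.80 (limma adjusted p = 0.0947), which passed without Yg Het replicate 3 (-2.71, adjusted p = 0.0497) or with weights per library (-2.47, adjusted p = 0.0293). Yg WT livers spanned 1.32 to 15.5 RPKM, O-O livers 1.79 to 15.4 RPKM and O (YgWT) livers 1.64 to 23.7 RPKM. O (Yg Het) against O-O stood at -1.61 ± 0.80 (adjusted p = 0.138). Gadd45g was most like Phlda1 (r = 0.76), Mup20 (0.70) and Foxq1 (0.69).

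Gadd45b was low, from 8 to 81 reads per liver. Its level was 0.901 ± 0.298 RPKM in Yg WT, 0.452 ± 0.188 in Yg Het, 1.24 ± 0.853 in O-O, 0.957 ± 0.385 in O (YgWT) and 1.06 ± 0.292 RPKM in O (Yg Het) livers. Yg Het livers, at 0.366, 0.486, 0.378, 0.272 and 0.760 RPKM, included 4 below every Yg WT liver, which spanned 0.688 to 1.42 RPKM. O (Yg Het) livers, at 1.40, 0.659, 1.18, 0.877 and 1.2 RPKM, overlapped them through 1 liver of each group. That difference, 0.71 ± 0.24, missed the threshold (limma adjusted p = 0.0666) and passed without Yg Het replicate 5 (0.82, adjusted p = 0.0327) or with weights per library (0.78, adjusted p = 0.0162). Yg Het against Yg WT was at -0.55 ± 0.24 (adjusted p = 0.175). Its closest patterns were Frmd4b (r = 0.73), Hexa (0.71) and H2afj (0.71).

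Gadd45a, the p53-induced member of the family, was at 1.99 ± 0.454 RPKM in Yg WT, 2.58 ± 0.522 in Yg Het, 3.29 ± 1.19 in O-O, 2.72 ± 1.61 in O (YgWT) and 2.65 ± 0.529 RPKM in O (Yg Het) livers. The widest difference was O-O against Yg WT (0.57 ± 0.24, limma adjusted p = 0.111), and none was called, also with any library left out. Its closest patterns were Cfap36 (r = 0.68), Arg1 (0.67) and Aldh1b1 (0.66). Of 7 tested MAP kinase genes downstream of these sensors, Map2k3 (0.56 ± 0.11) and Map2k6 (0.77 ± 0.22) rose in Yg Het against Yg WT livers; after scaling Map2k6 was lost (adjusted p = 0.0662). Map2k6 also rose in O (Yg Het) against O (YgWT) livers (0.72 ± 0.22), where Mapk9 fell (-0.18 ± 0.07) but stood at 0.01 after scaling. After scaling 3 of 7 were higher and 0 lower in that comparison. Of 9 tested immediate-early genes, the rapid response class to which Gadd45b and Gadd45g are often counted, Egr1 fell in Yg Het against Yg WT livers (-2.08 ± 0.36) and rose in O (Yg Het) against Yg Het livers (1.64 ± 0.36). Klf6 (-0.73 ± 0.17) and Myc (-1.08 ± 0.35) fell in O (Yg Het) against O-O livers, and 1 of them was called after scaling.

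Btg1 encodes an antiproliferative adaptor of mRNA deadenylation. Yg Het livers held 4.42, 2.96, 3.02, 2.65 and 4.08 RPKM, all below the Yg WT livers at 7.43, 5.06, 4.84, 6.25 and 5.07 RPKM. These groups were separated in this way in 4.66% of all tested genes. O (Yg Het) livers were at 4.67, 4.36, 4.49, 4.66 and 5.39 RPKM and O (YgWT) livers at 5.13, 6.49, 6.01, 7.87 and 6.14 RPKM, overlapping through 1 liver of each group. The O-O livers ranged from 4.59 to 7.35 RPKM.

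Yg Het livers had less Btg1 than Yg WT livers by -0.67 ± 0.13 (limma adjusted p = 0.00734), kept with each single library left out and in all alternative settings. The old livers with a heterozygous partner were at -0.38 ± 0.13 against those with a wild-type partner (adjusted p = 0.0346). This call was lost after scaling (-0.19, adjusted p = 0.348) and without O (YgWT) replicate 2, 3 or 4 or O (Yg Het) replicate 1, 2, 3 or 4 (adjusted p = 0.0518 to 0.0861). O (Yg Het) against Yg Het was at 0.43 ± 0.13 (adjusted p = 0.057), which passed after scaling (0.57, adjusted p = 0.0456), with voom (0.64, adjusted p = 0.0477) and without Yg Het replicate 5 (0.49, adjusted p = 0.0266). Of 4 tested relatives of the BTG and TOB family, Tob2 rose in O (Yg Het) against O (YgWT) livers (0.49 ± 0.18; 0.69 after scaling). Btg1 was most like Pter (r = 0.79), Pnrc1 (0.78) and Tardbp (0.78).

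**Figure D5:**
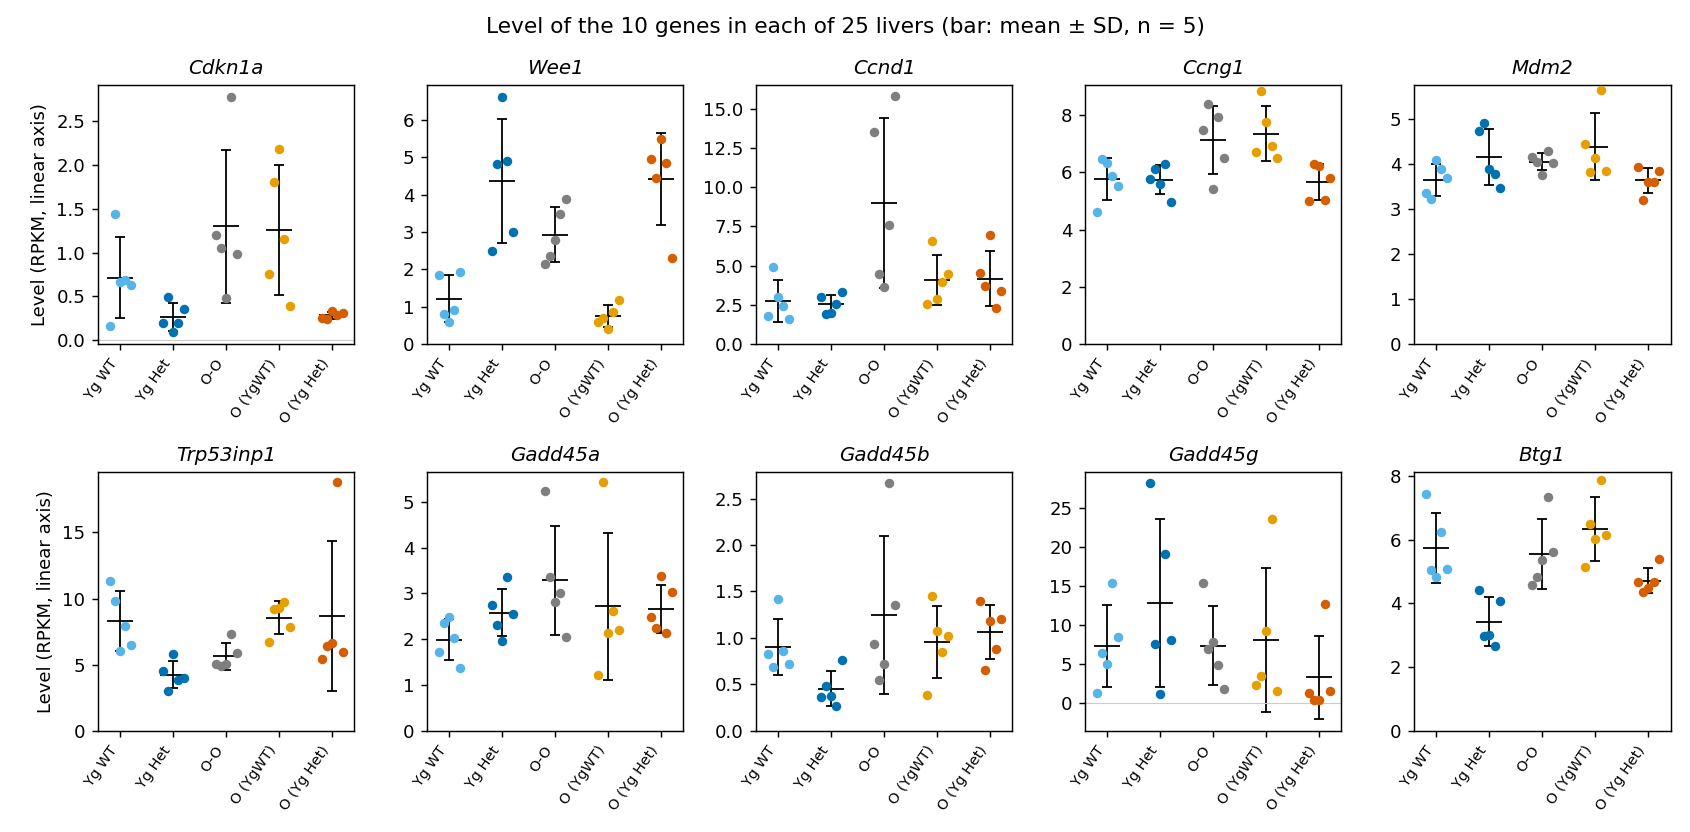
Level of each of the 10 genes (y axes, RPKM, linear) in the 25 livers, by group (x axis), with 1 point per liver and bars for mean ± SD (n = 5). Wee1 is high in both groups of the heterozygous pairs, Cdkn1a is at 0.245 to 0.335 RPKM in O (Yg Het) livers, and single livers stand out in Trp53inp1 (18.8 RPKM) and Gadd45g (12.8 RPKM) of that group.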

How the data were processed

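Liver RNA (Trizol, TruSeq Stranded mRNA LT, per the labels' protocols) was sequenced; the submitters' processing notes name STAR (version 2.4.2a), HTSeq and the mm10 build. Strand setting and treatment of multi-mapping reads are not given in the sources used here. The authors deposited a single table of RPKM values per gene and library. Of its 60354 rows, 36222 had no values, 1 held an infinite value and 24 had date-like symbols; these were left out. A gene was tested if 5 or more of the 25 libraries reached 1 RPKM.

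RPKM were analysed as log2(RPKM + 0.5) with limma 3.58.1 (R 4.3.3, trend and all groups in 1 model) and Benjamini-Hochberg adjustment; figures and summaries used Python 3.11.15, pandas 2.3.3, numpy 2.4.6 and matplotlib 3.10.9. Whole reads, recovered from the RPKM steps to within 0.02 reads, served for counting errors and for voom. The fit was tested on simulated data. Named further genes were those passing the threshold in a list, and the 3 most correlated with each gene, some of which are not reported here. The 10 genes and all lists were chosen with earlier results of these data known. P-values test differences of group means against the spread between animals within groups, pooled over all groups. Joined mice share blood, yet all animals were fitted as independent. Alternatives were other constants and filters, scaling, compared groups alone, library weights, voom, a replicate block and leaving out each library. Promoters and motifs came from the RefSeq table of GRCm38.p6.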

Additional observations from a re-analysis of the deposited data

Results flagged for a closer look

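Among 50 sets of 5 livers (10 genes in 5 groups), 3 held a single liver far from the other 4 by Dixon's test, which chance gives in about 1 in 20. Trp53inp1 read 18.8 RPKM in O (Yg Het) replicate 4, against 5.44 to 6.65 RPKM in the other 4 livers. Gadd45g read 12.8 RPKM in that liver, against 0.435 to 1.56 RPKM in the others. The same liver had the lowest macrophage marker sum of the 25, 70.0 RPKM, and the part of this in both values was not tested. Gadd45b read 1.42 RPKM in Yg WT replicate 3, against 0.688 to 0.854 RPKM in the others.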

How the results depend on the processing

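Counts of the 10 genes called moved as follows. Against O-O, in O (Yg Het) livers, 2 became 1 with no filter, with both kinds of scaling, with compared groups fitted alone and with library weights, and 0 with voom or a filter at 5 RPKM. Against O (YgWT) livers 4 became 2 with both kinds of scaling, voom and the filter at 5 RPKM, and 3 with no filter (Btg1, adjusted p = 0.0549). In Yg Het against Yg WT 3 became 2 with no filter (Trp53inp1, adjusted p = 0.0658) and with the filter at 5 RPKM. For O (Yg Het) against Yg Het livers 1 became 0 with no filter and with groups alone, and 4 with library weights. In O (YgWT) against O-O 1 became 0 with the filter at 5 RPKM. In O-O against Yg WT 2 became 1 with that filter and with groups alone. The interaction went from 0 to 1 with library weights. The filter at 5 RPKM leaves Cdkn1a, Wee1, Mdm2, Gadd45a and Gadd45b untested, which lowers counts by construction; elsewhere the cause was not tested. Voom took its library sizes from the scaling factors, so it is not separate from scaling.

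With each library left out in turn, the counts ran from 1 to 1 in O (YgWT) against O-O, 1 to 3 in O (Yg Het) against O-O, 2 to 5 in O (Yg Het) against O (YgWT), 2 to 3 in Yg Het against Yg WT, 0 to 0 in O (YgWT) against Yg WT, 0 to 3 in O (Yg Het) against Yg Het, 2 to 3 in O-O against Yg WT and 0 to 1 in the interaction. Of the single gene values under all alternatives, 1594 had the same outcome as the main fit, called or not called. A call was lost in 48 and gained in 18, and 0 reversed after being called. The 1594 include values never called, so they do not give the share of calls kept.

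With the replicate number as a block the count in O (Yg Het) against Yg Het was 0 (Trp53inp1 adjusted p = 0.0566), and the block changed no other count of the 10 genes. Over all groups, the mean correlation of same-numbered deviations over 50 pairs was -0.00229 (range -0.527 to 0.275), and 3 of 25 libraries correlated best with their own number. Most of these pairs join groups that were not partners of each other. The mean therefore cannot tell whether the numbers mark joined mice.

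Over all genes the calls ranged, across alternatives and then across omitted libraries, from 48 to 317 and 12 to 231 in O (YgWT) against O-O (main 110). They ranged from 816 to 3402 and 1215 to 2793 in O (Yg Het) against O-O (2211), and from 1444 to 4038 and 1957 to 3486 against O (YgWT) (3065). Yg Het against Yg WT gave 173 to 1122 and 140 to 829 (481), O (YgWT) against Yg WT 4 to 58 and 4 to 28 (11), and O (Yg Het) against Yg Het 84 to 1976 and 18 to 1508 (520). O-O against Yg WT gave 473 to 1302 and 411 to 1332 (1017), and the interaction 0 to 2036 and 0 to 1234 (1). Depth limits Cdkn1a and Gadd45b most, with as few as 5 and 8 reads in a liver.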
